A study of Mus musculus with 3 samples.

Results

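The 10 genes described here encode growth factors and receptors of the PDGF, IGF and VEGF families and were chosen by name from a deposited table of 51826 rows. They were the PDGF ligand genes Pdgfa, Pdgfb and Pdgfc with the receptor genes Pdgfra and Pdgfrb, the IGF ligand genes Igf1 and Igf2 with the receptor gene Igf1r, and the VEGF ligand genes Vegfa and Vegfc. Messenger RNA was sequenced from ST2 cells, a line of mouse bone marrow stromal cells, in 3 libraries of 1 sample each. Control cells received empty vector together with control siRNA. NELL2-overexpressing cells received a NELL2 construct in place of the empty vector, and Fn1-silenced cells received Fn1 siRNA in place of the control siRNA. Transfection was with lipofectamine, every siRNA was used at 30 nM, and all cells were grown in medium with serum, named as DMEM in the labels and as α-MEM in the study's methods. Levels are given as FPKM, fragment numbers scaled to transcript length and to the size of the library, as the authors deposited them.

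PDGFs are dimers that activate the tyrosine kinases PDGFRα and PDGFRβ and drive migration and proliferation of mesenchymal cells. IGF-I and IGF-II act through the IGF-I receptor, and both are stored in bone matrix, where IGF-binding proteins hold them and proteases release them. VEGF-A and VEGF-C act mainly on endothelial cells through receptors that stromal cells usually express weakly, and VEGF-A from bone-forming cells couples vessel growth to bone formation. The comparisons asked which of these genes differ when NELL2, a secreted protein, is raised or when fibronectin (Fn1) is lowered.

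With 1 library in each group, no difference has a replicate check and no test was made. A gene was called when log2(FPKM + 1) differed from the control by 1 or more, which is 2-fold on this scale, and 1 FPKM was reached in either library. The depth read from low values was about 23000000 fragments for the control, 23700000 for NELL2 overexpression and 24200000 for Fn1 knockdown. Counting intervals (95%, exact) rest on these approximate totals and on a median transcript length, and cover counting error only, not the spread between cultures. The labelled perturbations were visible in the table, with Nell2 at 0.640, 326 and 1.06 FPKM and Fn1 at 2802, 2489 and 137 FPKM in the same order. All 8 stromal markers examined reached 1 FPKM, with Col1a1 between 1352 and 1601 FPKM. Of the 7 endothelial markers, Tie1 and Cldn5 were listed at 0 in all 3 libraries and the summed level lay between 1.79 and 1.996 FPKM. Blood cell markers summed to 5.73, 6.05 and 3.01 FPKM, mostly from Cd68, with Cd3e listed at 0 and Ptprc at 0.0633 FPKM or less. Mural cell markers summed to between 24.5 and 29.3 FPKM, of which Cspg4 made up 22.9 FPKM in the control. Mature osteoblast markers summed to between 4.07 and 4.31 FPKM, of which Sp7 made up 4.13 FPKM in the control while Bglap was listed at 0, and adipocyte markers to between 1.48 and 1.59 FPKM.

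Upstream sequences from RefSeq (GRCm38.p6) were examined for 8 of the 10 genes, in 13 windows. Pdgfb had no entry, whereas Pdgfrb was left out by choice, so the motif counts do not cover it. Each window covers the 150 bases before a transcription start. The windows shown belong to genes whose levels were higher in the Fn1 knockdown library. For Pdgfra the difference was within counting error at the median transcript length. The windows shown were limited to those that hold no annotated exon of the same strand. GC boxes, written GGGCGG on either strand, are in capitals, and sequences run 5′ to 3′ along the gene.
Igf2, start 1 (chr7:142666817-142666966, minus strand): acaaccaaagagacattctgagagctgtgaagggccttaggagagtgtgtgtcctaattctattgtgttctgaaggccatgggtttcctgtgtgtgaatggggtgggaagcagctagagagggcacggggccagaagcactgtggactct
Igf2, start 4 (chr7:142657497-142657646, minus strand): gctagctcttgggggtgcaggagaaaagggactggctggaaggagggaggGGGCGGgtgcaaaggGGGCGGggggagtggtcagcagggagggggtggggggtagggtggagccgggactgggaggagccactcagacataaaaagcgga
Igf1r (chr7:67952107-67952256, plus strand): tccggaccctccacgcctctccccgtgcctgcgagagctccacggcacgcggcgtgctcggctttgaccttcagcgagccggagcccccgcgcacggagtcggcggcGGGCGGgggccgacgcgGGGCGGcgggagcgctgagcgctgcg
Vegfa, start 1 (chr17:46032378-46032527, minus strand): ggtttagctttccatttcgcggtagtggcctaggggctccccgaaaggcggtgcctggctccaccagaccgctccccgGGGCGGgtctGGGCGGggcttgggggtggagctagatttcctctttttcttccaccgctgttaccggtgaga
Pdgfc (chr3:81036266-81036415, plus strand): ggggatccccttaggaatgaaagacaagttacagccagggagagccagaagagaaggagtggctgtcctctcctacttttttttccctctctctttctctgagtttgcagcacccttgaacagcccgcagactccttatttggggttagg
Pdgfra (chr5:75152101-75152250, plus strand): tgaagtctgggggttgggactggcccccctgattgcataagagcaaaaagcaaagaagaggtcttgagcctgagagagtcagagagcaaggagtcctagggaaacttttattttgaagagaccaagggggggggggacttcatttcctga

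The Igf2 window of start 1 lies before the most upstream of 4 annotated starts, within an intron of 1 annotated transcript of the same strand. The window of start 4 lies before the most downstream start, inside introns of longer transcripts. The Vegfa and Igf1r windows shown each held 2 GC boxes, as did the Igf2 window of start 4, whereas that of start 1 and the Pdgfc and Pdgfra windows held none. Over the 13 windows, 6 held a GC box, and these belonged to 4 genes, Pdgfa, Igf2, Igf1r and Vegfa. By comparison, 28.6% of 32817 windows of this length hold one. No window held the TATA box TATAAA, which 7.58% of all windows hold. The core of the hypoxia response element was searched as ACGTG and as GCGTG, all motifs on both strands, and these were present in 11.2% and 20.5% of all windows. ACGTG occurred in the Igf2 window of start 3, next to its GC box, and GCGTG occurred at 3 places in the Igf1r window. The Vegfa windows held neither form, which says only that these letters are not within 150 bases of these starts. CpG dinucleotides numbered 26 before Igf1r, 10 before the first start of Vegfa, 4 and 1 before starts 4 and 1 of Igf2, 1 before Pdgfc and 0 before Pdgfra, against a median of 4.

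In the control library the level of Igf2 was highest, and 9 of the 10 genes reached 1 FPKM. Igf2 stood at 114 FPKM, above 95.8% of the genes at 1 FPKM or more. Next came Pdgfrb at 63.4 FPKM, Pdgfc at 41.5 FPKM and Vegfa at 32.9 FPKM. A middle group held Igf1r at 15.3 FPKM, Pdgfa at 14.02 FPKM, Pdgfra at 8.95 FPKM and Igf1 at 7.78 FPKM. Vegfc was low at 3.62 FPKM and Pdgfb, at 0.160 FPKM or about 2 fragments, was near the limit of detection. Of the 9 pairs of neighbours in this order, 8 kept it in each of the other libraries. The exception in both was Igf1r and Pdgfa, whose levels in the control differed by a factor of 1.09, so their order was not fixed.

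**Figure D1:**
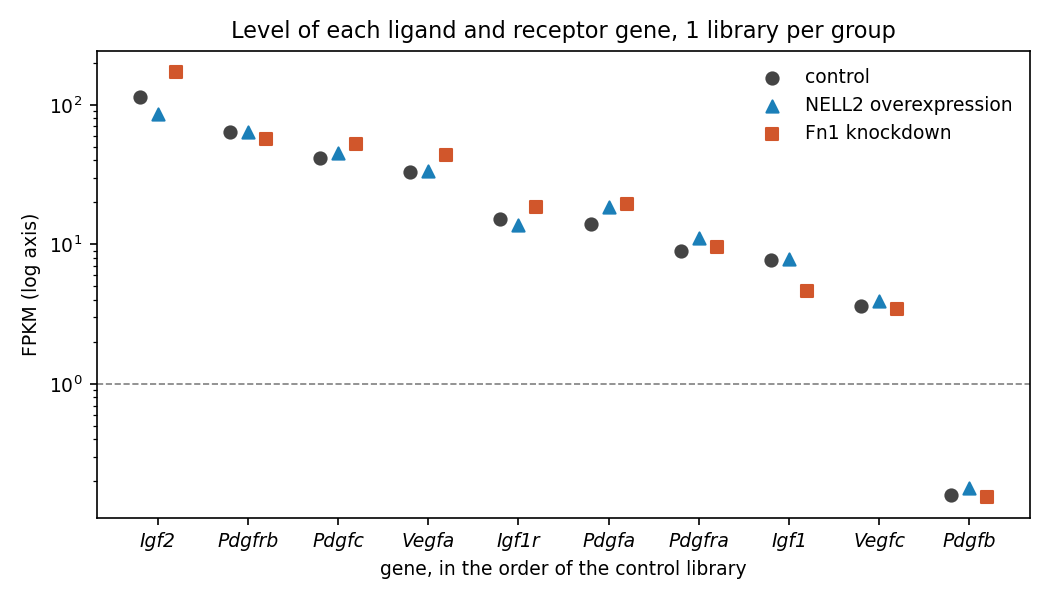
FPKM (log axis) of the 10 genes in the control (circles), NELL2 overexpression (triangles) and Fn1 knockdown (squares) libraries, with 1 library per group and a dashed line at 1 FPKM. Igf2 is highest in all 3 libraries, from 85.3 to 172 FPKM, and Pdgfb is the one gene below the line.

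No member was called in either comparison. Pdgfb, below 1 FPKM in every library, could not be called. With NELL2 overexpression the rule called 0 of the other 9 members against 0.652% of the 12572 genes examined (82 genes). After Fn1 knockdown it called 0 of these 9 against 1.23% of 12574 genes (155 genes). Over 9 genes these shares amount to less than 1 call, so a count of 0 does not set the members apart. At a threshold of 1.5-fold, 0 members passed with NELL2 overexpression, where 2.59% of genes did. After Fn1 knockdown 2 members passed, Igf2 higher and Igf1 lower, where 6.24% of genes did. The median log2 ratio over the 9 members that reached 1 FPKM anywhere was 0.024 with NELL2 overexpression and 0.26 after Fn1 knockdown, beside 0.0071 and -0.0030 over all 12733 such genes. In the NELL2 overexpression library 7 of these 9 members lay above the control and 2 below, and in the Fn1 knockdown library 6 lay above and 3 below. The comparisons share the control library, so their values are given side by side and not as independent evidence.

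**Figure D2:**
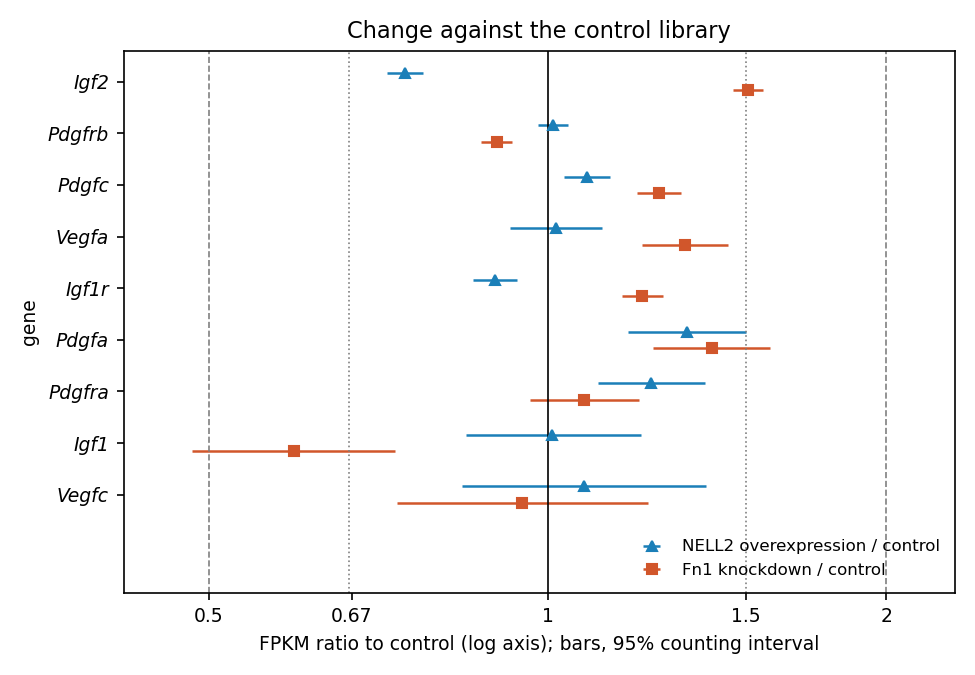
FPKM ratio to the control library (log axis) for 9 genes, with NELL2 overexpression as triangles and Fn1 knockdown as squares; bars are 95% counting intervals, dotted lines mark 1.5-fold and dashed lines 2-fold. Igf2 lies at 0.747 and 1.51 in the 2 libraries and Igf1 at 1.01 and 0.595, and Pdgfb, with about 2 fragments in the control, is left out.

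Among the PDGF ligands, Pdgfa was higher than the control in both treated libraries. Pdgfa (ENSMUSG00000025856.15, GRCm38 chromosome 5, 138976014 to 138997370, minus strand) encodes the A chain, which acts through PDGFRα. Its level was 14.02 FPKM in control cells, 18.6 FPKM in NELL2-overexpressing cells and 19.6 FPKM in Fn1-silenced cells, so the control was the lowest of the libraries. The FPKM ratios were 1.33 (counting interval 1.18 to 1.501) and 1.40 (1.24 to 1.58), from about 468, 643 and 689 fragments. On the log2(FPKM + 1) scale the differences were 0.39 and 0.46, and 6.67% and 11.3% of all genes at 1 FPKM or more differed by as much in either direction. The gene 6330403L08Rik overlaps Pdgfa on the opposite strand and was listed at 2.92, 2.81 and 1.47 FPKM, at most 20.9% of the Pdgfa level. Whether strand was used in counting is not stated, so reads of this pair may not have been separated.

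Pdgfc (ENSMUSG00000028019.9, GRCm38 chromosome 3, 81036416 to 81214040, plus strand) encodes a ligand secreted in latent form, from which proteases such as tissue plasminogen activator (Plat) remove an inhibitory domain. Pdgfc stood at 41.5 FPKM in control cells, 45.03 FPKM in NELL2-overexpressing cells and 52.2 FPKM in Fn1-silenced cells. The level was thus highest after Fn1 knockdown, at a ratio of 1.26 (1.201 to 1.31), with a smaller ratio of 1.08 (1.03 to 1.14) in the NELL2 overexpression library. Pdgfc exceeded Pdgfa by factors of 2.96, 2.42 and 2.66 in the 3 libraries. Plat itself was at 36.4, 40.3 and 27.2 FPKM, lower after Fn1 knockdown at a ratio of 0.747 (0.700 to 0.797).

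Pdgfb (ENSMUSG00000000489.7, GRCm38 chromosome 15, 79995874 to 80014977, on the minus strand), whose product binds both receptors and is made mainly by endothelial cells and platelets, was at 0.160, 0.180 and 0.156 FPKM. These values correspond to about 2, 3 and 2 fragments, and at this depth no difference was detectable. The messages of the receptors were more abundant by far, at levels given next.

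Both PDGF receptor genes were expressed. Pdgfrb (ENSMUSG00000024620.11, GRCm38 chromosome 18, 61045150 to 61085061, plus strand) was at 63.4 FPKM in control cells, 64.1 FPKM in NELL2-overexpressing cells and 57.1 FPKM in Fn1-silenced cells. Its ratios were 1.01 (0.980 to 1.04) and 0.901 (0.873 to 0.930), and its highest level exceeded the lowest by a factor of 1.12, the smallest such range among the 10 genes. Pdgfra (ENSMUSG00000029231.15, GRCm38 chromosome 5, 75152292 to 75198215, plus strand) was at 8.95, 11.1 and 9.64 FPKM in the same order. The NELL2 overexpression library was thus the highest for Pdgfra, at a ratio of 1.24 (1.11 to 1.38), whereas the ratio after Fn1 knockdown was 1.08 (0.964 to 1.21). With the shortest coding transcript as its length, the former interval widened to 0.930 to 1.64. With the longest, the latter interval narrowed to 1.002 to 1.158. Pdgfrb exceeded Pdgfra by factors of 7.08, 5.80 and 5.92.

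The IGF ligands showed the widest range between libraries, with Igf2 and Igf1 on opposite sides of the control after Fn1 knockdown. Igf2 (ENSMUSG00000048583.16, GRCm38 chromosome 7, 142650766 to 142666816, minus strand) is an imprinted gene, expressed mostly from the paternal allele, that encodes the fetal growth factor IGF-II. Its level was 114 FPKM in control cells, 85.3 FPKM in NELL2-overexpressing cells and 172 FPKM in Fn1-silenced cells. Thus Igf2 was lowest in the NELL2 overexpression library and highest in the Fn1 knockdown library, which differed by a factor of 2.02. The ratios to the control were 0.747 (0.720 to 0.775) and 1.51 (1.46 to 1.55), from about 6563, 5067 and 10411 fragments. On the log2(FPKM + 1) scale they were -0.42 and 0.59, sizes reached by 5.75% and 6.10% of all genes. The second value lies only just past the 1.5-fold threshold of 0.58, and with a pseudocount of 5 no member passed it.

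Igf1 (ENSMUSG00000020053.18, GRCm38 chromosome 10, 87858265 to 87937042, plus strand) encodes IGF-I, which supports osteoblast function and survival. It was at 7.78 FPKM in control cells, 7.86 FPKM in NELL2-overexpressing cells and 4.63 FPKM in Fn1-silenced cells. The first pair of values was nearly equal, at a ratio of 1.01 (0.845 to 1.21), and the Fn1 knockdown library was lower, at 0.595 (0.483 to 0.732). On the log2(FPKM + 1) scale the latter was -0.64, the largest difference among the members, and 4.87% of all genes differed by as much. The number of fragments behind Igf1 was about 244, 255 and 153, or 91, 95 and 57 with its shortest coding transcript, which widens the second interval to 0.420 to 0.838. Blood cells also make Igf1, and beside its lower level after Fn1 knockdown the blood cell markers summed to 3.01 FPKM against 5.73 FPKM in the control, nearly all of the gap being Cd68, at 1.57 against 4.08 FPKM, while Csf1r was at 1.06 FPKM in both. Their part in the Igf1 difference was not tested, and in RNA from whole cultures fewer cells of a type cannot be told apart from less RNA per cell. Igf2 exceeded Igf1 by factors of 14.7, 10.9 and 37.2 in control, NELL2-overexpressing and Fn1-silenced cells.

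Igf1r (ENSMUSG00000005533.10, GRCm38 chromosome 7, 67952827 to 68233668, plus strand), the tyrosine kinase receptor for both ligands, was at 15.3 FPKM in control cells, 13.7 FPKM in NELL2-overexpressing cells and 18.5 FPKM in Fn1-silenced cells. Its order of libraries was that of Igf2, with ratios of 0.898 (0.859 to 0.939) and 1.21 (1.16 to 1.27), but its range was narrower. The related receptors moved less. Igf2r, which carries IGF-II to lysosomes, was at 50.6, 48.7 and 55.7 FPKM, and the insulin receptor gene Insr was at 5.03, 4.99 and 5.33 FPKM.

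Igf2 lies in an imprinted cluster with H19, a noncoding RNA expressed from the maternal allele that shares enhancers with Igf2. H19 (ENSMUSG00000000031.16, GRCm38 chromosome 7, 142575529 to 142578143, on the minus strand) stood at 15.0 FPKM in control cells, 11.9 FPKM in NELL2-overexpressing cells and 29.6 FPKM in Fn1-silenced cells. The libraries therefore had the same order as for Igf2, with ratios of 0.791 (0.683 to 0.917) and 1.97 (1.75 to 2.23). On the log2(FPKM + 1) scale H19 was at 0.93 after Fn1 knockdown, below the 2-fold rule, and 1.54% of all genes differed by as much. H19 was singled out after its values were seen. The Igf2 level exceeded that of H19 by factors of 7.61, 7.19 and 5.82, so the quotient varied less than either gene. Other genes of this list varied less. Igf2os, antisense to Igf2, was listed at 0.387, 0.608 and 0.636 FPKM, at most 0.712% of the Igf2 level. Ins2 and Nctc1 were listed at 0 in all libraries. The annotated gene Gm49394 shares exons with Igf2 on the same strand and has no row of its own in the table, so its reads may be included in Igf2. Among genes that bind Igf2 mRNA, Igf2bp1, Igf2bp2 and Igf2bp3 were at 125%, 127% and 120% of the control after Fn1 knockdown, and at 103%, 118% and 96.0% with NELL2 overexpression. Mrpl23, a mitochondrial ribosomal protein gene, was at 23.2, 24.0 and 26.2 FPKM, and Ctcf, whose product insulates the cluster, at 20.9, 18.5 and 19.01 FPKM. Over the 6 genes of this list at 1 FPKM or more, 0 were called in either comparison, beside 0.652% and 1.23% of all genes. The median log2 ratio of the list was -0.0079 with NELL2 overexpression and 0.27 after Fn1 knockdown. Over all genes at 1 FPKM or more the medians were 0.0071 and -0.0030.

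Likeness to Igf2, the member with the largest log2 ratio among those at 10 FPKM or more, was measured as the distance between pairs of log2 ratios across 5740 genes at 10 FPKM or more in every library. The 3 nearest genes were Asph, at a distance of 0.047, Imp4 at 0.19 and Smyd5 at 0.20. Asph, which encodes an aspartyl hydroxylase, was at 32.8, 25.1 and 49.1 FPKM, Imp4, a nucleolar protein gene, at 12.4, 10.3 and 17.8 FPKM, and Smyd5 at 16.6, 12.8 and 29.2 FPKM. H19 stood at a distance of 0.36, with 40 genes nearer. With only 3 libraries, one of them shared by both ratios, such likeness is a description.

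Apart from Igfbp1, the IGF-binding protein genes were expressed above the ligand gene Igf1 in each library. Igfbp2 was at 288, 276 and 236 FPKM, Igfbp7 at 179, 191 and 151 FPKM, and Igfbp4, which inhibits IGF action until cleaved, at 68.1, 82.2 and 84.4 FPKM. After Fn1 knockdown Igfbp3, Igfbp4 and Igfbp5 were higher and Igfbp2 and Igfbp7 lower than the control, and the interval of Igfbp6 reached 1, at a ratio of 0.854 (0.731 to 1.001). Igfbp3, the main carrier of IGFs in serum, was at 8.03 FPKM in control cells, 9.11 FPKM in NELL2-overexpressing cells and 15.1 FPKM in Fn1-silenced cells, a ratio of 1.89 (1.66 to 2.14) for the last. Igfbp5, which binds bone matrix, was at 10.9, 12.4 and 18.1 FPKM, a ratio of 1.65 (1.55 to 1.76). Both were singled out with their values known, and neither was called. Igfbp1 was listed at 0 throughout. Pappa, which encodes the protease that cleaves the Igfbp4 product, was at 42.5, 37.1 and 49.3 FPKM. Over the 10 genes of this list at 1 FPKM or more, 0 were called in either comparison, beside 0.652% and 1.23% of all genes. After Fn1 knockdown 2 passed 1.5-fold, where 6.24% of all genes did. The median log2 ratios were 0.056 with NELL2 overexpression and 0.11 after Fn1 knockdown.

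**Figure D3:**
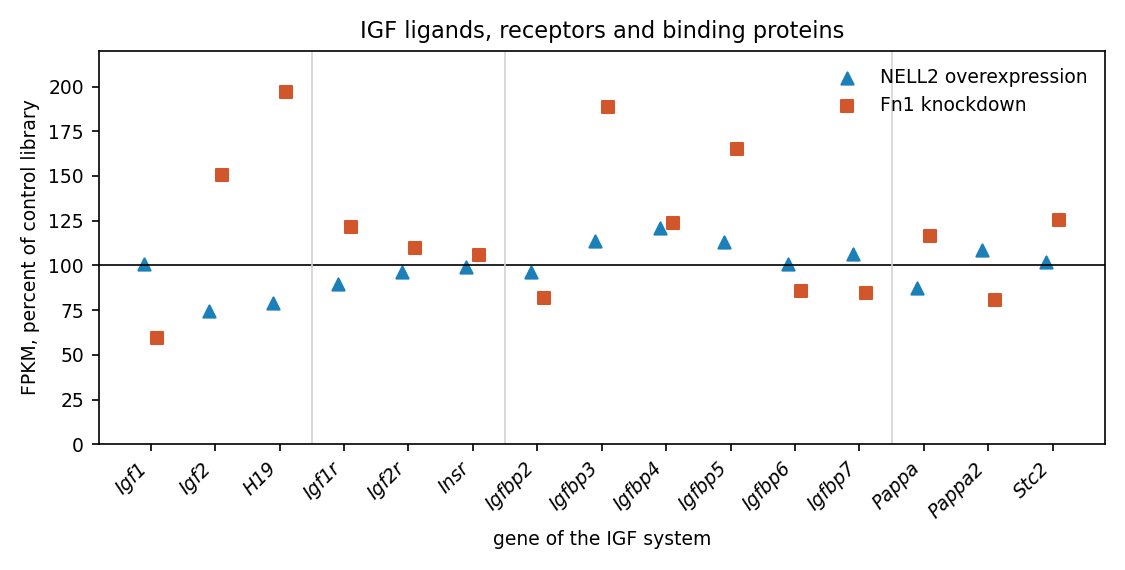
FPKM as percent of the control library (line at 100) for IGF ligands with H19, receptors, binding proteins, and proteases with the inhibitor Stc2, in NELL2 overexpression (triangles) and Fn1 knockdown (squares). After Fn1 knockdown Igf1 stands at 59.5%, Igf2 at 151%, H19 at 197%, Igfbp3 at 189% and Igfbp5 at 165%, whereas the NELL2 overexpression values lie between 74.7% and 121%.

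Vegfa was higher than the control after Fn1 knockdown and nearly level with NELL2 overexpression. Vegfa (ENSMUSG00000023951.17, GRCm38 chromosome 17, 46016993 to 46032369, minus strand) encodes the principal angiogenic factor, which hypoxia induces. It was at 32.9 FPKM in control cells, 33.5 FPKM in NELL2-overexpressing cells and 43.6 FPKM in Fn1-silenced cells. The ratios were 1.02 (0.926 to 1.12) and 1.32 (1.21 to 1.45), and on the log2(FPKM + 1) scale the latter was 0.39, a size reached by 15.3% of all genes. Vegfc (ENSMUSG00000031520.6, GRCm38 chromosome 8, 54077606 to 54187096, plus strand), the lymphangiogenic ligand, was at 3.62, 3.90 and 3.44 FPKM. Its libraries differed by less than the counting error, with ratios of 1.08 (0.839 to 1.38) and 0.949 (0.735 to 1.23). Vegfa exceeded Vegfc by factors of 9.10, 8.59 and 12.7.

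Other ligands and receptors of these families were also present. Vegfb was at 21.8, 20.4 and 17.8 FPKM and Vegfd at 20.5, 18.3 and 17.0 FPKM. Pgf, encoding placental growth factor, was at 2.82, 2.96 and 1.23 FPKM, and its ratio after Fn1 knockdown was 0.435 (0.309 to 0.605), although the pseudocount keeps it at -0.78 on the log2(FPKM + 1) scale and it was not called. Pdgfrl, a receptor-like gene, was at 5.15, 6.17 and 2.78 FPKM, a ratio of 0.539 (0.420 to 0.691) after Fn1 knockdown. Pgf and Pdgfrl were singled out with their values known. The VEGF receptor genes were low, with Flt1 at 0.660 FPKM or less, Kdr at 1.33 FPKM or less and Flt4 between 5.10 and 6.11 FPKM. The co-receptor gene Nrp2 was at 50.3, 50.0 and 54.0 FPKM, and Nrp1 at 19.9, 20.3 and 26.3 FPKM. Of the 15 genes in this list 11 reached 1 FPKM and 0 were called in either comparison, beside 0.652% and 1.23% of all genes, and 2 passed 1.5-fold after Fn1 knockdown, both lower, beside 6.24% of all genes, and the median log2 ratios were -0.011 with NELL2 overexpression and -0.018 after Fn1 knockdown.

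Genes that process or relay these signals were then counted from 4 further lists, in which 0 genes were called in either comparison. The shares over all genes were 0.652% with NELL2 overexpression and 1.23% after Fn1 knockdown, so a count of 0 does not set these lists apart. Of the ligand-processing genes, Furin, a convertase that cuts proproteins, was at 51.7, 49.8 and 56.4 FPKM and Adamts14, a procollagen protease, at 12.0, 12.5 and 15.4 FPKM. The 7 genes of this list at 1 FPKM or more had median log2 ratios of 0.060 with NELL2 overexpression and 0.18 after Fn1 knockdown. Among the 20 receptor adaptors and proximal enzymes the medians were -0.0049 and 0.058. Grb10, an adaptor that restrains IGF-I receptor signalling, was at 111, 103 and 133 FPKM, Shc1 at 57.1, 59.9 and 52.0 FPKM, and the phosphatase gene Ptpn11 at 52.7, 54.6 and 55.4 FPKM. Grb2, which links activated receptors to Ras and was chosen after its values were seen, was at 19.97, 21.1 and 38.1 FPKM. Its ratio after Fn1 knockdown was 1.91 (1.77 to 2.06). It was the one gene of the 20 past 1.5-fold in that comparison, where 6.24% of all genes passed, so this count does not set the list apart.

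Early response and feedback genes, which growth factor receptors induce, had medians of -0.034 with NELL2 overexpression and 0.087 after Fn1 knockdown over 16 genes, and 0 passed 1.5-fold in either comparison, beside 2.59% and 6.24% of all genes. The largest difference was that of Etv4, a transcription factor gene, at 8.40, 5.55 and 7.01 FPKM, a ratio of 0.660 (0.570 to 0.764) with NELL2 overexpression that the pseudocount keeps at -0.52 on the log2(FPKM + 1) scale. Ier3 was at 54.3, 71.2 and 63.5 FPKM, Dusp1, a phosphatase that dampens MAP kinases, at 35.2, 30.6 and 38.3 FPKM, and Spred2, an inhibitor of Ras signalling, at 22.2, 21.8 and 23.4 FPKM. Hypoxia-inducible factors and their targets had medians of 0.13 and 0.098 over 18 genes. With NELL2 overexpression 16 of these 18 lay above the control and 2 below, beside 6653 above and 6080 below over all genes at 1 FPKM or more. After Fn1 knockdown 10 lay above and 8 below, beside 6302 and 6429. Vegfa, a target of the same factors, stood at log2 ratios of 0.024 and 0.39. Ldha, a glycolytic enzyme gene, was at 362, 412 and 348 FPKM, Pgk1, another, at 211, 249 and 229 FPKM, and Adm, encoding the vasodilator adrenomedullin, at 70.8, 77.5 and 101 FPKM. With NELL2 overexpression the log2 differences of these 18 ran from -0.074 for Epas1 to 0.47 for Bnip3. After Fn1 knockdown they ran from -0.30 for Epas1 to 0.53 for Ero1l. Hif1a was at 61.6, 67.3 and 53.3 FPKM.

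**Figure D4:**
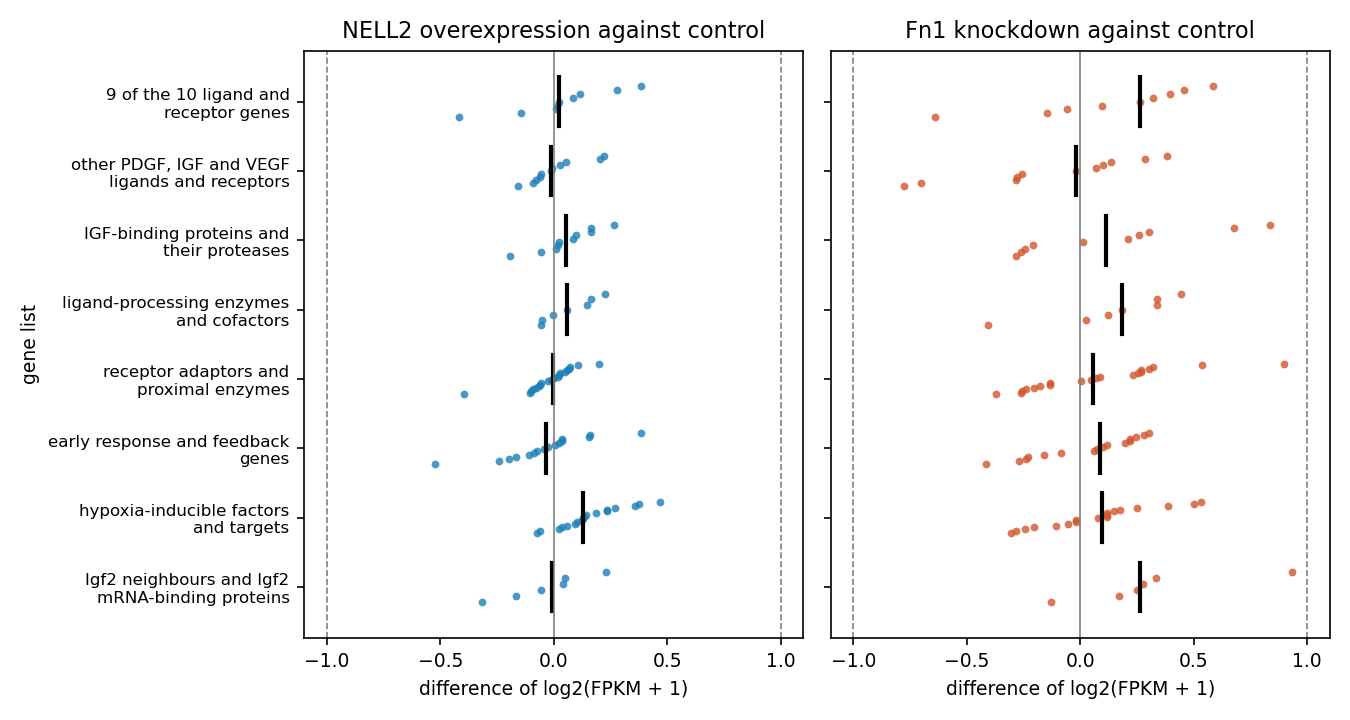
Difference of log2(FPKM + 1) from the control for each gene at 1 FPKM or more in any library (points), for the members and the pathway lists (marker lists are not drawn), with list medians as black bars and the 2-fold rule as dashed lines, for NELL2 overexpression (left) and Fn1 knockdown (right). No point drawn passes 2-fold, and the points drawn spread wider after Fn1 knockdown, from -0.78 for Pgf to 0.93 for H19.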

How the data were processed

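Polyadenylated RNA of ST2 cells was sequenced as paired reads of 150 bases on an MGISEQ-2000, and mapped by the authors with HISAT2 to mouse transcripts (GRCm38 in the submitters' processing notes). The deposited values are FPKM per gene for 3 libraries. The program that computed FPKM, the annotation and the use of strand in counting are not given in the sources used here. DESeq and a moderated test, named for the authors' own comparisons, were not applied.

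Differences of log2(FPKM + 1) from the control were taken over the whole table, with a minimum of 1 FPKM in either library. A pseudocount understates changes of low genes. Depth was read from genes with a single transcript of 600 bases or more, where the most frequent small value of FPKM times length was taken as 1 fragment. Only 24.7% to 25.4% of small values came within 0.02 of whole fragments, so fragment numbers are approximate. Names were matched to GENCODE M21 (GRCm38). Calculations used Python 3.11.15, scipy 1.17.1 and matplotlib 3.10.9, and the scripts were tested on simulated data. The members and lists were chosen with earlier results of these data known. Named genes are the 10 members, the 3 highest genes of each list in the control, list genes called, the 3 genes nearest to the member of largest ratio at 10 FPKM or more, and others said to be chosen after their values were seen, which include the remaining list genes and markers given with values. A marker withheld from the text is not reported here. Pseudocounts of 0.1 and 5, a filter of 5 FPKM, no filter, a 1.5-fold threshold and median-of-ratios scaling were tried.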

Additional observations from a re-analysis of the deposited data

How the results depend on the processing

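The count of members past the threshold was 0 in both comparisons under each pseudocount, filter and scaling tried, and with the 1.5-fold threshold it was 0 with NELL2 overexpression and 2 after Fn1 knockdown, as the lower threshold is built to allow. At 1.5-fold the same 2 genes passed with a pseudocount of 0.1, without the filter, with a filter of 5 FPKM and with scaling, where 1346, 851, 527 and 784 of all genes passed, and 0 passed with a pseudocount of 5, where 283 of all genes did, against 784 in the setting reported. Median log2 ratios of the members ranged from 0.015 to 0.024 with NELL2 overexpression and from 0.18 to 0.29 after Fn1 knockdown. None of 60 single-gene values changed sign or passed 2-fold. Without a filter the calls must stay as they are at a pseudocount of 1, and size factors (0.993 to 1.01) were too close to 1 for scaling to test much. No paired analysis was possible because there was a single library per group, and none could be left out.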
